A study of Rattus norvegicus with 12 samples.

Results

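Periportal amino acid-catabolic hepatocyte nuclei were selected from single-nucleus RNA-seq of rat liver by the unique molecular identifiers (UMIs, counted molecules) of 9 zonal genes. A nucleus was a member when its UMIs of Sds, Hal, Etnppl, Aspg and Amdhd1 summed to 3 or more and it held none of Cyp7a1, Glul, Oat and Sult1e1. There were 532 members among 12464 hepatocyte nuclei (4.27%), a hepatocyte nucleus being one with 5 or more UMIs of Alb, Apob and Cps1 together. The starting set was the 12525 nuclei that reached 1000 UMIs and whose mitochondrial share did not pass 10%. The livers were those of healthy male rats, 2 of the Dark Agouti (DA) strain and 2 of the Lewis (LEW) strain, with 1 10x Genomics 3′ v3 library per rat. The nuclei were freed by CST (CHAPS, salts and Tris) extraction, from total liver homogenate by the labels and from snap-frozen liver pieces by the study's methods. The labels of these libraries give no age, and no treatment or transgene is named. Spatial 3′ v1 libraries of 2 liver sections of healthy male Wistar rats were used beside them. Below, DA-1, DA-2, LEW-1 and LEW-2 name the rats.

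Blood enters the liver lobule at the portal vein and leaves at the central vein, and hepatocytes along this path divide their work. Periportal hepatocytes are known for breaking down amino acids, for making urea from the ammonia this frees, and for gluconeogenesis. Pericentral hepatocytes are known for glutamine synthesis, for bile acid synthesis through Cyp7a1 and for drug metabolism by cytochrome P450 enzymes. Among the genes that chose the members, Sds makes pyruvate from serine, Hal and Amdhd1 act in histidine breakdown, Etnppl degrades phosphoethanolamine, and Aspg degrades asparagine. Of the genes that excluded nuclei, Glul makes glutamine, Oat is ornithine aminotransferase, and Sult1e1 is an estrogen sulfotransferase.

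The UMI totals of the deposited nuclei matrices ranged from 8039397 to 15186970 per library. Over the members, the sums held 230805 UMIs in DA-1, 309482 in DA-2, 376377 in LEW-1 and 320629 in LEW-2. The median member held 1685, 2080, 2278 and 2067 UMIs in the same order, against 1581, 1653, 1510 and 2059 in the other hepatocyte nuclei. The median mitochondrial share was lower in members in every rat, 2.64 to 3.21% against 2.95 to 3.73%. After each nucleus was thinned to 1000 UMIs, the median member showed 597.5 to 622 genes and the median other hepatocyte nucleus 486 to 588. Of 76 nuclei marked as doublets, 2 were members. Across libraries, 21 cell barcodes occurred more than once, and 1 member carried such a barcode.

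The members made up 5.35% of hepatocyte nuclei in DA-1 (117 of 2187, exact 95% binomial interval 4.44 to 6.38%), 5.08% in DA-2 (128 of 2522, 4.25 to 6.01%), 2.76% in LEW-1 (145 of 5258, 2.33 to 3.24%) and 5.69% in LEW-2 (142 of 2497, 4.81 to 6.67%). LEW-1 was the low library, and the other 3 rats lay within each other's intervals, which cover counting error only. The mean share was 5.21% ± 0.19 (SD, n = 2) in DA and 4.22% ± 2.07 (SD, n = 2) in LEW (two-sided exact permutation test, p = 1, the smallest p that 2 rats against 2 allow being 0.333). With every nucleus thinned to 1000 UMIs, the shares were 11.9, 9.67, 4.91 and 10.1% in DA-1, DA-2, LEW-1 and LEW-2, since fewer nuclei then hold a pericentral UMI. The strains overlapped in both forms. Without LEW-1 the LEW share was 0.474 percentage points above the DA mean, so the direction of the strain difference rested on that library.

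**Figure D1:**
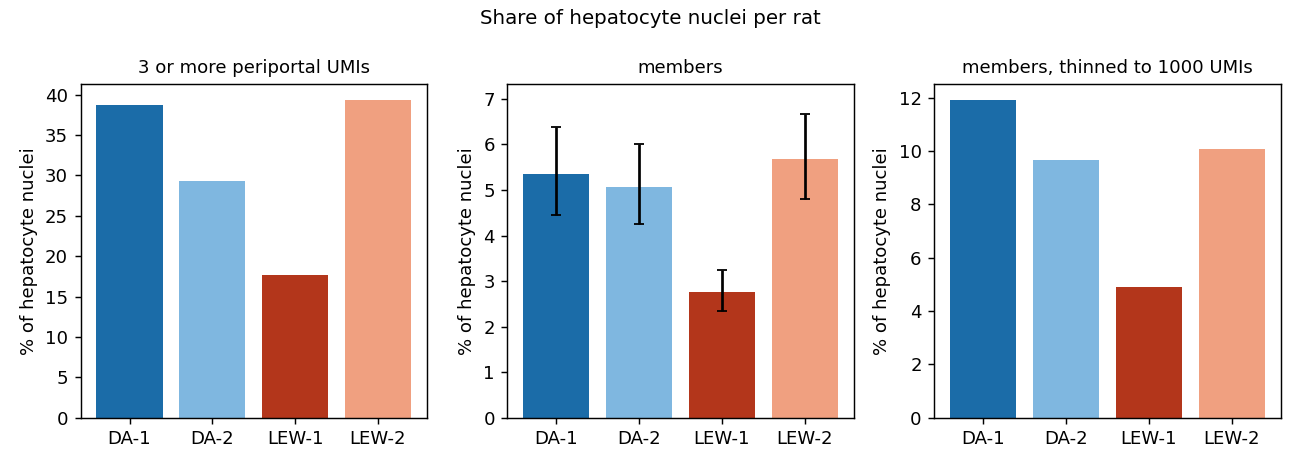
Share of hepatocyte nuclei per rat, in percent: nuclei with 3 or more UMIs of the 5 periportal genes (left), members as counted (middle, bars with exact 95% binomial intervals) and members after thinning to 1000 UMIs (right). LEW-1 has the lowest bar in each panel, at 17.7, 2.76 and 4.91%.

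The absence of pericentral UMIs removed most of the candidates. In all, 3502 hepatocyte nuclei had 3 or more UMIs of the 5 genes, and 2970 of them (84.8%) also held a pericentral UMI. For 1499 of these Sult1e1 was the only pericentral gene seen. A Sult1e1 UMI was also seen in nuclei that failed the hepatocyte gate, in 38.9% of 18 in DA-1, 40.0% of 35 in DA-2, 4 of 4 in LEW-1 and 50.0% of 4 in LEW-2 (median 1071 to 1113 UMIs), against 76.8 to 85.3% of the other hepatocyte nuclei (median 1510 to 2059 UMIs). Its level was 414 to 1153 CPM in the former and 1386 to 1899 CPM in the latter. The part of free RNA in these exclusions was not tested. The excluded nuclei were deeper, with a median of 2906 to 3515.5 UMIs per rat. At the threshold, 28 members held exactly 3 UMIs of the 5 genes (1552 CPM together, median 1853 UMIs), and 58 nuclei without pericentral UMIs fell just outside with 2 (1235 CPM, median 1350 UMIs). CPM is a gene's UMIs relative to the UMIs summed over a class of nuclei in a rat, scaled to a common total. Rule genes left out of a fit were also left out of that sum for the levels given with the fit. The levels in this paragraph, of the summed markers and of the sections use all UMIs.

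Sds supplied 44.2% of the five-gene UMIs in members and Aspg 25.7%. Aspg had a UMI in 93.4% of members, Sds in 87.4%, Etnppl in 77.1%, Hal in 49.4% and Amdhd1 in 44.4%. The mix differed between rats: Hal gave 12.7% of the five-gene UMIs in DA-2 and 12.9% in LEW-1 but 2.82% in DA-1 and 2.62% in LEW-2, while Etnppl gave 8.09% in DA-2 and 17.2 to 21.5% in the other 3 rats. In neither gene did the split follow strain. The median member held 10 to 13 five-gene UMIs per rat, 72 members showed all 5 genes and 5 members rested on 1 gene.

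Each gene that chose the members was tested in nuclei chosen on the other four, still without pericentral UMIs. All 5 were higher there than in the remaining hepatocyte nuclei (edgeR quasi-likelihood test on sums per rat, rat as a block, adjusted over all genes), and in every rat. Sds stood at 3656, 2357, 1493 and 3233 CPM in DA-1, DA-2, LEW-1 and LEW-2 of the chosen nuclei, against 1349, 613, 342 and 938 CPM (log2 fold change 1.66 ± 0.13 SE, adjusted p = 3.26e-17). Aspg differed by 1.56 ± 0.12, Amdhd1 by 1.57 ± 0.14, Etnppl by 1.35 ± 0.13 and Hal by 1.22 ± 0.14, with edgeR adjusted p from 9.43e-12 to 3.14e-17. In these 5 fits 6.2, 6.72, 6.76, 6.24 and 6.26% of all tested genes were called higher with Sds, Hal, Etnppl, Aspg and Amdhd1 left out of the choice in turn.

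The pericentral genes were tested in all 3502 nuclei with 3 or more periportal UMIs, whatever their pericentral UMIs. All 4 were lower there than in the other hepatocyte nuclei, where 27.5% of all tested genes were called lower. Glul was at 25.5, 30.6, 60.6 and 83.6 CPM in DA-1, DA-2, LEW-1 and LEW-2 against 131, 147, 123 and 334 CPM (log2 fold change -2.18 ± 0.18, edgeR adjusted p = 9.87e-15). Cyp7a1 differed by -1.69 ± 0.21 and Oat by -1.43 ± 0.18. Sult1e1 differed least, by -0.85 ± 0.19 (edgeR adjusted p = 0.000176), with 991 to 1584 CPM in the periportal nuclei against 1488 to 2228 CPM.

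**Figure D2:**
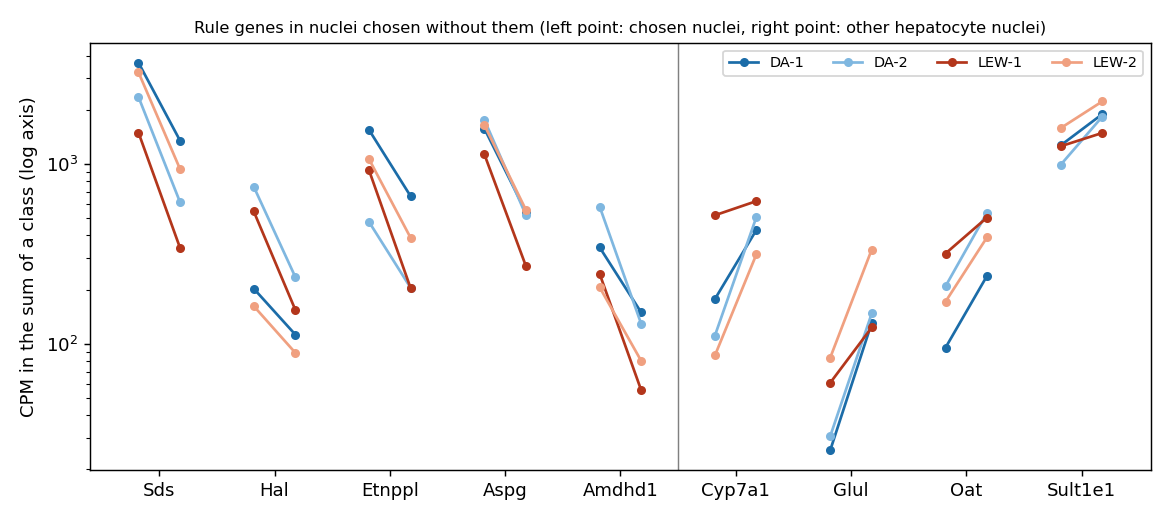
Level of each rule gene, in CPM on a log axis, in the chosen nuclei (left point) and the other hepatocyte nuclei (right point), 1 line per rat. The 5 periportal genes, each in nuclei chosen on the other four, fall from left to right in all 4 rats, and the 4 pericentral genes, in nuclei chosen on periportal genes alone, climb in all 4.

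Members were then compared with the other hepatocyte nuclei of the same rat, with the 12 genes of the rule (the 9 zonal genes and Alb, Apob and Cps1) left out. The ionotropic glutamate receptor subunit Gria3, the tyrosine phosphatase Ptpn13 and the sterol exporters Abcg5 and Abcg8 were among the genes that rose most. The small protein gene Pcp4l1 and the flavin monooxygenase gene Fmo1 had the largest decreases under the naming rule. Of 9663 genes tested, 636 were higher in members (6.58%) and 1202 lower (12.4%). The comparison group was not purely pericentral, since it contained the 2970 nuclei rich in the 5 genes. Nor can it be taken as hepatocytes alone, since the gate passed 12464 of 12525 nuclei. The study annotated endothelial, mesenchymal, myeloid and cholangiocyte nuclei in its map of these libraries. Against the 2970 nuclei alone, 30 genes were higher in members (0.352% of 8511) and 85 lower (0.999%). Without the rat as a block the counts were 7 higher and 59 lower. That fit ignores that both sums of a rat come from the same liver and library, so the spread between rats enters its error. The number of higher genes was 393 without DA-1, 358 without DA-2 and 389 without LEW-1. Of all tested genes 36.5% had the same direction in all 4 rats, and so did 1616 of the 1838 called.

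Gria3 stood at 152, 185, 196 and 225 CPM in the members of DA-1, DA-2, LEW-1 and LEW-2. It was at 24.2, 28.2, 27.3 and 41.1 CPM in the other hepatocyte nuclei and at 0, 0.696, 1.23 and 0 CPM in pericentral nuclei. No rat's members overlapped either group (log2 fold change 2.50 ± 0.15 against the others, edgeR adjusted p = 4.55e-19). Pericentral nuclei are the 3111 hepatocyte nuclei that mirror the rule, with 3 or more pericentral UMIs and none of the 5 periportal genes.

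Ptpn13 was at 40.2, 46.3, 41.4 and 54.5 CPM in members of the 4 rats, against 8.35, 7.71, 9.67 and 14.3 CPM in the others (2.02 ± 0.27, edgeR adjusted p = 7.59e-08). Abcg5 and Abcg8, which together form the transporter that sends sterols into bile, both rose. Abcg8 was at 107, 82.7, 119 and 141 CPM in members and 28.3, 24.0, 47.0 and 32.8 CPM in the others (1.58 ± 0.18, edgeR adjusted p = 2.14e-09). Abcg5 was at 84.9, 82.7, 185 and 141 CPM against 43.1, 32.3, 50.0 and 55.4 CPM (1.30 ± 0.16). The leptin receptor gene Lepr was at 49.2, 89.3, 113 and 86.6 CPM in members and 24.4, 21.7, 37.4 and 44.6 CPM in the others (1.26 ± 0.19). The members lay above the other nuclei of the same rat in all 4 rats, as the naming rule required of each of these genes.

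The remaining higher genes under the naming rule were Lhx8 (1.39 ± 0.26), Rab30 (1.37 ± 0.19), B4galt5 (1.24 ± 0.24), Pus7l (1.22 ± 0.29), Mob3b (1.19 ± 0.30), the metallothionein Mt2A (1.17 ± 0.14) and Dhx32 (1.17 ± 0.22). Mt2A spanned 223 to 1770 CPM over the members of the 4 rats, and DA-1 was the highest. Against the nuclei rich in the 5 genes that held pericentral UMIs, Gria3 still differed by 1.55, Ptpn13 by 1.30, Abcg8 by 1.00, Rab30 by 0.66, Abcg5 by 0.62 and Mt2A by 0.45, all past the edgeR threshold. Lepr (0.51, edgeR adjusted p = 0.168) did not pass there, nor did Lhx8, B4galt5, Pus7l, Mob3b and Dhx32 at 0.64 to 0.77.

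**Figure D3:**
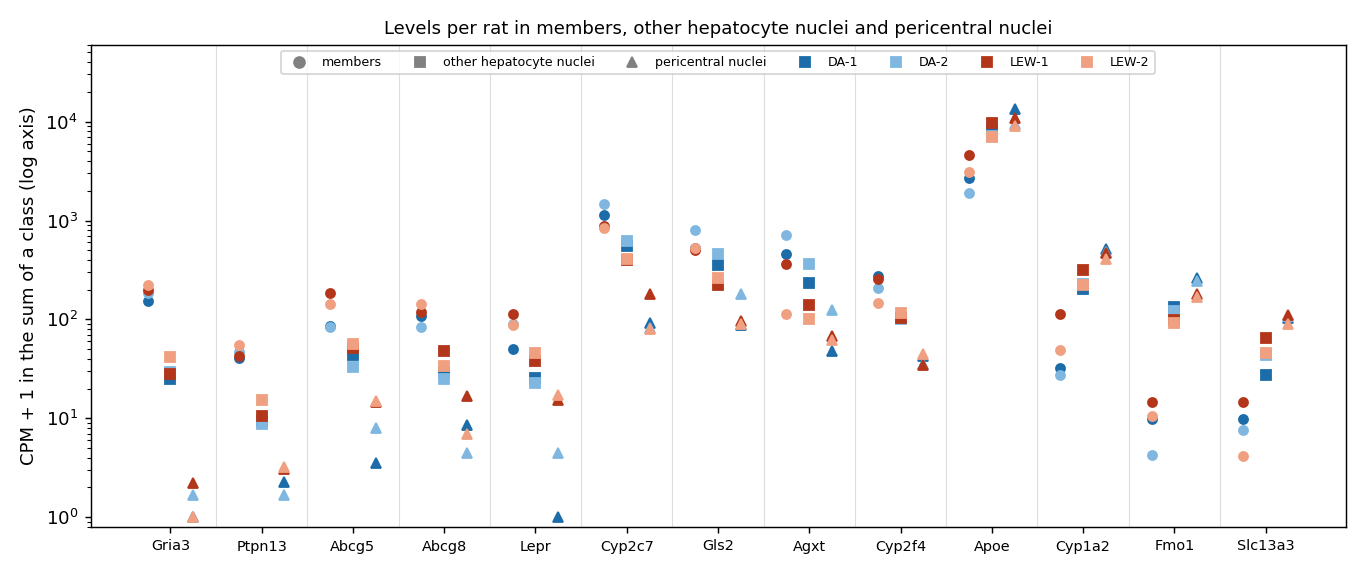
Level of 13 genes in each rat, in CPM + 1 on a log axis, in members (circles), other hepatocyte nuclei (squares) and pericentral nuclei (triangles). Gria3 lies at 152 to 225 CPM in members and at 0 to 1.23 CPM in pericentral nuclei, and Fmo1 at 3.31 to 13.8 CPM in members and 167 to 261 CPM in pericentral nuclei.

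Against pericentral nuclei, 1043 of 5996 genes were higher in members (17.4%) and 1195 lower (19.9%). The number of higher genes was 689 without DA-1, 678 without DA-2 and 644 without LEW-1. The largest differences under the naming rule were Gria3 (7.69 ± 0.35), Ptpn13 (4.44 ± 0.40), Abcg5 (3.44 ± 0.25), Abcg8 (3.44 ± 0.28), the kinase gene Map3k21 (3.39 ± 0.37) and the P450 gene Cyp2c7 (3.11 ± 0.24). Gria3 was nearly absent from pericentral nuclei, so the size of its difference is uncertain. Cyp2c7 was at 1126, 1481, 888 and 834 CPM in the members of DA-1, DA-2, LEW-1 and LEW-2. It was at 558, 615, 398 and 403 CPM in the other hepatocyte nuclei, and at 90.0, 80.8, 181 and 79.6 CPM in pericentral nuclei. The 3 classes kept this order in every rat. The pericentral nuclei are counted among the other hepatocyte nuclei, so the middle place of the latter is no separate result. The comparisons with pericentral nuclei and with the other hepatocyte nuclei also share the members, so they are not independent.

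Of 57 amino acid-catabolic genes outside the rule, 15 were higher and 10 lower than in the other hepatocyte nuclei, beside 6.58% higher and 12.4% lower over all genes. The list's median log2 fold change was -0.01 beside 0.03 over all genes, and the balance of the 2 directions depended on the setting. It was 10 higher and 6 lower without LEW-1, 11 and 12 without DA-1, 11 and 11 without marker-bearing nuclei, and 9 and 14 of 60 with no filter on low counts. Uroc1 and Ftcd, which act beside Hal and Amdhd1 in histidine breakdown, rose by 0.71 ± 0.13 and 0.51 ± 0.12. Uroc1 was at 429, 420, 267 and 414 CPM in members and 227, 265, 143 and 208 CPM in the others. Gldc of the glycine cleavage system rose by 0.86 ± 0.14, while Gcsh of the same system fell (-0.56 ± 0.17). The peroxisomal aminotransferase gene Agxt rose by 0.77 ± 0.14 and Sdsl, a relative of Sds, by 0.67 ± 0.23.

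Got1, the cytosolic aspartate aminotransferase, rose by 0.77 ± 0.13 and Gpt, the alanine aminotransferase, by 0.67 ± 0.14. Gls2, the liver glutaminase, was at 523, 810, 505 and 529 CPM in members, 352, 461, 221 and 259 CPM in the others and 86.2, 179, 95.2 and 89.2 CPM in pericentral nuclei (0.75 ± 0.13 against the others and 2.18 ± 0.18 against pericentral nuclei). Pcca, Tat, Tdo2, Kmo, Cbs, Bhmt and Mat1a made up the rest of the higher genes, at 0.34 to 0.88.

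The lower genes included Csad, Bckdhb, Hibadh, Got2, Aldh7a1, Hpd, Aldh4a1, Gcsh and Glud1. Csad, which makes the taurine precursor hypotaurine, fell furthest. It was at 295, 82.7, 223 and 141 CPM in members and 834, 425, 452 and 379 CPM in the others (-1.68 ± 0.15, edgeR adjusted p = 1.45e-12). Bckdhb and Hibadh of branched-chain amino acid breakdown differed by -1.05 ± 0.27 and -0.82 ± 0.16. The mitochondrial aspartate aminotransferase Got2 differed by -0.70 ± 0.15, opposite in sign to its cytosolic counterpart Got1. Against the excluded nuclei rich in the 5 genes, edgeR called 0 of the 57 list genes higher and 2 lower, with 4 higher and 7 lower at an unadjusted p under 0.05. Over all genes 9.21% had such a p there, 3.95% higher and 5.26% lower. Without the rat as a block it called 0 of the 57 (0.683% of all genes), with 14 at an unadjusted p under 0.05, as had 15.6% of all genes. These shares are the background of the like counts for the lists that follow. Against pericentral nuclei 18 of 55 were higher and 13 lower (median -0.08 beside 0.09 over all genes).

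In the urea cycle and ammonia list, 6 of 10 genes were higher and 2 lower, with a median of 0.44 beside 0.03 over all genes. Arg1, which releases urea, was at 2190, 2113, 1448 and 885 CPM in members and 1330, 1100, 827 and 512 CPM in the others (0.65 ± 0.13). Asl rose by 0.49 ± 0.13, and the mitochondrial carriers Slc25a13 and Slc25a15 by 0.50 ± 0.15 and 0.39 ± 0.13. Ass1 (0.09 ± 0.13) and Nags (0.11 ± 0.16) did not pass the test. Otc differed by -0.84 ± 0.18 and Glud1 by -0.38 ± 0.14. Against pericentral nuclei 6 of 10 were higher and 2 lower as well (median 0.63). Every call of this list was lost against the excluded nuclei rich in the 5 genes (edgeR, 0 of 10, median 0.11, with 4 at an unadjusted p under 0.05) and without the rat as a block (0 of 10, with 3). Without DA-1, 4 were higher and 2 lower, and without DA-2 or without LEW-1, 5 and 1. With no filter on low counts, 3 were higher and 2 lower.

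Gluconeogenesis genes were higher in 5 of 12 cases and lower in 2 (median 0.44). Pck1 was at 12727, 13457, 9790 and 10896 CPM in members and 7998, 8188, 5249 and 7734 CPM in the others (0.54 ± 0.13). G6pc rose by 0.56 ± 0.13, its glucose 6-phosphate transporter Slc37a4 by 0.44 ± 0.12 and Fbp1 by 0.44 ± 0.13, with Got1 as the fifth. The pyruvate carrier genes Mpc1 (-0.70 ± 0.14) and Mpc2 (-0.83 ± 0.27) fell. Here too edgeR called 0 of 11 against the excluded nuclei rich in the 5 genes (median 0.14, with 4 at an unadjusted p under 0.05) and 0 of 12 without the rat as a block (with 1). Without DA-2, 3 were higher and 2 lower, and without LEW-1 or LEW-2, 5 and 1. With no filter on low counts 3 were higher.

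Among amino acid transporters, 6 of 12 were higher and 3 lower (median 0.28). The cationic amino acid transporter gene Slc7a2 was at 804, 400, 254 and 106 CPM in members and 351, 201, 79.6 and 72.5 CPM in the others (0.98 ± 0.14, edgeR adjusted p = 1.81e-07), so members were above the others in each rat although DA-1 and LEW-2 members differed widely. The neutral amino acid transporters Slc38a2 and Slc38a4 rose by 0.74 ± 0.13 and 0.47 ± 0.13. Slc16a10, which carries aromatic amino acids, was at 15.2 to 35.4 CPM in the others and 0 to 22.3 CPM in members (-1.88 ± 0.43). Against the excluded nuclei rich in the 5 genes edgeR called 0 of 11 transporters higher and 1 lower, with 4 and 2 at an unadjusted p under 0.05, and without the rat as a block it called 0 of 12, with 3. Without DA-1, 4 were higher and 2 lower, and without DA-2, 4 and 1. With no filter on low counts, or without marker-bearing nuclei, 3 were higher.

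Of 22 hormone and fasting response genes, 5 were higher and 2 lower (median 0.29). The glucagon receptor gene Gcgr was at 751, 724, 745 and 824 CPM in members and 405, 438, 355 and 476 CPM in the others (0.71 ± 0.12, edgeR adjusted p = 1.26e-05), and its level varied little between rats. Irs2 rose by 0.59 ± 0.14, Sik1 by 0.49 ± 0.13, Klf9 by 0.47 ± 0.13 and Tsc22d3 by 0.39 ± 0.14. Txnip and Cebpa were the lower genes, at -0.76 ± 0.24 and -0.47 ± 0.15. With nuclei of at least 1500 UMIs, edgeR called 1 of 21 genes of this list, with 9 at an unadjusted p under 0.05, beside 9.19% and 20.9% of all genes. It called 0 of 21 against the excluded nuclei rich in the 5 genes, with 3, and 0 of 22 without the rat as a block, with 1. Without LEW-1, 3 were higher and 1 lower, without DA-1 or DA-2 4 and 1, without LEW-2 5 and 3, and with no filter on low counts 2 and 3.

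**Figure D4:**
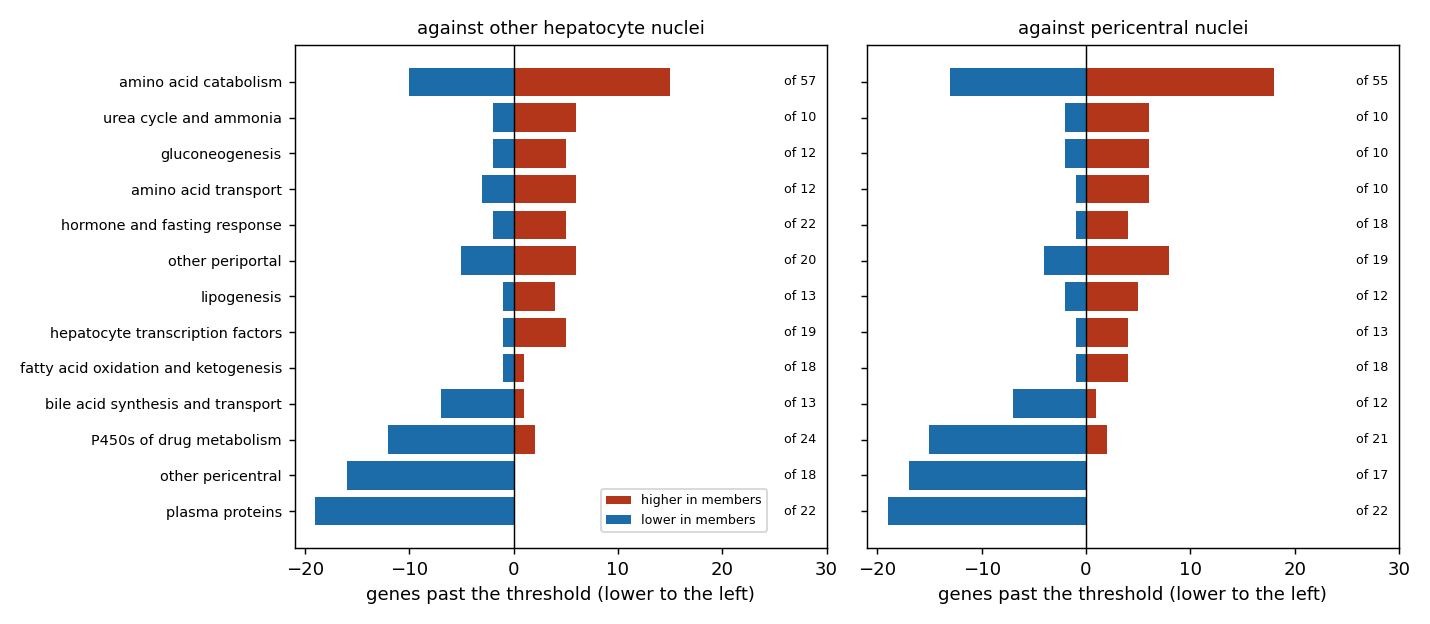
Number of genes in 13 lists past the threshold in members against other hepatocyte nuclei (left panel) and against pericentral nuclei (right panel), with genes higher in members drawn to the right, genes lower to the left, and the number tested at the right edge. The amino acid catabolism list has bars on both sides (15 and 10 of 57 in the left panel), while the pericentral and plasma protein lists have bars to the left alone (16 of 18 and 19 of 22).

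Of 20 other periportal genes tested, 6 were higher and 5 lower (median 0.02). Against the excluded nuclei rich in the 5 genes 1 was higher and 0 lower by edgeR, with 6 and 0 at an unadjusted p under 0.05. Cyp2f4 was at 273, 208, 256 and 144 CPM in members and 102, 98.9, 101 and 116 CPM in the others (0.89 ± 0.14). Ctsc (-1.11 ± 0.16), Tf, Orm1, Igfals and Cdh1 were lower in members. Of 18 other pericentral genes 0 were higher and 16 lower (median -1.30), and 7 of 16 were lower against the excluded nuclei. Cyp1a2 was at 31.3, 26.5, 113 and 48.1 CPM in members and 204, 227, 318 and 224 CPM in the others (-2.33 ± 0.19, edgeR adjusted p = 1.74e-14). Cyp2e1 differed by -1.76 ± 0.14, and Gulo of vitamin C synthesis by -1.56 ± 0.15. Notum (-0.31 ± 0.14) and Gstm1 (-0.34 ± 0.13) did not pass.

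Pcp4l1, Fmo1, the vitamin B12 carrier gene Tcn2 and the dicarboxylate transporter gene Slc13a3 were among the named decreases. Pcp4l1 had 2 UMIs over all members and 908 over the other hepatocyte nuclei, a ratio of 20.5 with a 95% counting interval of 5.67 to 170. Fmo1 was at 8.94, 3.31, 13.8 and 9.62 CPM in members and 134, 122, 98.8 and 90.7 CPM in the others (-3.74 ± 0.29). Slc13a3 was at 3.21 to 13.8 CPM against 26.6 to 64.2 CPM (-2.68 ± 0.35). Tcn2 was at 4.47 to 16.0 CPM against 50.3 to 61.2 CPM (-2.74 ± 0.33). Against the excluded nuclei rich in the 5 genes, Fmo1 differed by -3.07 and Tcn2 by -1.57, both past the edgeR threshold. Slc13a3 did not pass there (-0.98, edgeR adjusted p = 0.497). Against pericentral nuclei the largest decreases were Pcp4l1 (ratio 54.2, interval 14.9 to 448), Fmo1 (-4.72 ± 0.31), Slc13a3 (-3.85 ± 0.32), Nceh1 (-3.72 ± 0.43), 1 Mup4 row of the gene table (-3.54 ± 0.27) and Tcn2 (-3.50 ± 0.33). Mup4 belongs to a family of near-identical genes, so its value is uncertain.

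Several of the most decreased genes are markers of other cells. Fosb (-3.48 ± 0.41), an immediate early gene, Ccdc80 (-3.28 ± 0.41), Col3a1 (-3.23 ± 0.29), Cd74 (-3.11 ± 0.35), Ecm1 (-2.88 ± 0.32), Igfbp3 (-2.73 ± 0.26), Hgf (-2.65 ± 0.39) and Aqp1 (-2.61 ± 0.39) completed the named list. Against the excluded nuclei rich in the 5 genes, Ccdc80, Col3a1, Cd74, Ecm1, Igfbp3 and Hgf passed by edgeR, at -2.32 to -1.63. Aqp1 did not pass there (-1.45, edgeR adjusted p = 0.135). Per rat, 10.9 to 21.9% of the other hepatocyte nuclei held 2 or more UMIs of endothelial, macrophage, mesenchymal, cholangiocyte or leukocyte markers, against 3.91 to 5.13% of members. Endothelial markers were lower in 7 of 7 cases, macrophage markers in 4 of 5 and mesenchymal markers in 4 of 5 (medians -2.10, -1.16 and -3.12). The calls were 4 of 7, 1 of 5 and 4 of 5 with nuclei of at least 1500 UMIs, 1 of 5, 1 of 5 and 4 of 4 against the excluded nuclei rich in the 5 genes, and 2 of 7, 2 of 5 and 4 of 5 without the rat as a block. Without DA-2, 2 of 5 macrophage markers were lower. The summed endothelial markers stood at 30.3 to 136 CPM in members and 169 to 381 CPM in the others, the macrophage markers at 38.8 to 143 CPM and 152 to 176 CPM, and the mesenchymal markers at 17.3 to 61.4 CPM and 143 to 266 CPM. In DA-1 members 4 endothelial markers (Calcrl, Fcgr2b, Ptprb and Stab2) were at 0. The cholangiocyte markers (1 tested) gave 0 calls, the leukocyte markers 1 lower gene of 1 tested (Ptprc), and no erythroid marker was tested. Igfbp3 did not pass once nuclei with 2 or more UMIs of the markers of other cells were left out. Nor did Col3a1 and Ecm1, but they are among the markers that chose those nuclei. Their loss was thus fixed in advance and decides nothing. Of the 24 named genes, 17 passed with those nuclei left out and 3 did not, while the rest were not tested there.

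Plasma protein genes were lower in members in 19 of 22 cases and higher in 0, with a median of -0.86. Apoe was at 2686, 1914, 4616 and 3095 CPM in members and 8454, 7117, 9776 and 6981 CPM in the others (-1.61 ± 0.14, edgeR adjusted p = 2.63e-13). The vitamin D-binding protein gene Gc differed by -1.32 ± 0.14 and transthyretin, Ttr, by -0.96 ± 0.14. Depth-matched other nuclei left 19 of 22 lower (median -0.76), and nuclei of at least 1500 UMIs left 16 of 22 lower (median -0.54). Against the excluded nuclei rich in the 5 genes, 1 of 22 was lower (median -0.09). Without the rat as a block edgeR called 0 of 22, with 14 at an unadjusted p under 0.05. The mitochondrial share and the markers of other cells were also lower in members. With marker-bearing nuclei left out 21 of 22 plasma protein genes were lower (median -0.96), and with at most 5% mitochondrial UMIs 19 of 22 (median -0.78).

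Of 13 lipogenesis genes, 4 were higher and 1 lower (median 0.31). Without DA-1, 1 was higher and 2 lower, and against the excluded nuclei rich in the 5 genes edgeR called 0 higher and 1 lower (median 0.03), with 1 each at an unadjusted p under 0.05. Fatty acid synthase, Fasn, rose by 0.67 ± 0.14, Pnpla3 by 1.08 ± 0.29, Thrsp by 0.51 ± 0.13 and pyruvate kinase, Pklr, by 0.37 ± 0.13. The stearoyl-CoA desaturase gene Scd went the other way. It was at 44.7, 86.0, 55.2 and 77.0 CPM in members and 201, 325, 231 and 262 CPM in the others (-2.11 ± 0.17, edgeR adjusted p = 2.46e-14). Among 18 genes of fatty acid oxidation and ketogenesis (median 0.01), Cyp4a3 rose (1.05 ± 0.21) and Ehhadh fell (-0.72 ± 0.20). Without DA-1 or DA-2, 2 genes of this list were lower, and without LEW-1 0.

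Bile acid genes were lower in 7 of 13 cases and higher in 1 (median -0.44), among them Cyp8b1 (-1.28 ± 0.16) and the conjugation gene Slc27a5 (-1.22 ± 0.14), while the repressor gene Nr0b2 rose by 0.66 ± 0.14. In the drug metabolism list 12 of 24 genes were lower (median -0.48), and Cyp2c7 (0.96 ± 0.12) and the xenobiotic receptor gene Nr1i2 (0.66 ± 0.13) were higher. Against the excluded nuclei rich in the 5 genes 0 bile acid genes were higher and 3 of 12 lower (edgeR, median -0.13, with 1 and 5 at an unadjusted p under 0.05), and 1 drug metabolism gene was higher and 4 of 21 lower (median -0.18), and Nr0b2, Nr1i2 and Cyp8b1 did not pass there. Of 19 hepatocyte transcription factors, 5 were higher and 1, Cebpa, lower (median 0.19). Without DA-1 or without LEW-2, 3 were higher and 1 lower, and without DA-2 or without LEW-1, 4 and 0. The higher ones included Prox1 (0.69 ± 0.13), Tcf7l2 (0.66 ± 0.15), Onecut1 (0.61 ± 0.14) and Hnf4a (0.34 ± 0.13). Without the rat as a block edgeR called 0 genes of the other periportal, fatty acid oxidation, bile acid and transcription factor lists, with 5, 1, 4 and 1 at an unadjusted p under 0.05, and 3 other pericentral genes, 2 of the drug metabolism list and 1 lipogenesis gene, all lower. Against the excluded nuclei rich in the 5 genes it called 0 of 18 transcription factors and 0 of 18 fatty acid oxidation genes, with 3 and 2 at an unadjusted p under 0.05.

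The levels were set beside the tissue sections as a description. In each section the 20% of spots with the highest CPM of the 5 periportal genes (488 and 481 spots) were compared with the lowest 20% (487 and 480 spots). A spot covers several cells. The 4 pericentral genes, which did not choose the spots, were lower in the high spots of both sections: Glul was at 68.0 and 54.6 CPM against 186 and 208 CPM, Cyp7a1 at 30.6 and 25.2 against 72.8 and 90.7 CPM, Oat at 274 and 243 against 563 and 616 CPM, and Sult1e1 at 855 and 915 against 1256 and 1410 CPM. Of 213 genes called higher in members with at least 20 CPM in the sections, 134 (62.9%) were higher in the high spots of both sections, against 32.3% of 3491 tested genes. Of 976 called lower, 452 (46.3%) were lower in both, against 35.0%.

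Gene by gene, Gls2 was at 307 and 336 CPM in the high spots and 204 and 203 CPM in the low spots. Fmo1 was at 41.0 and 33.3 CPM against 117 and 132 CPM, Csad at 40.4 and 23.9 against 153 and 117 CPM, and Scd at 611 and 457 against 1513 and 1423 CPM. Each of these went the same way as in members. Abcg5 was at 14.5 and 16.5 CPM against 6.27 and 5.83 CPM. Gria3 was nearly absent from the sections, at 2.21 and 6.44 against 1.93 and 2.06 CPM. Plasma protein genes did not go the way they did in members: 15 of 22 were higher and 7 lower in the high spots of both sections. Tat, which was higher in members, was higher in the high spots too, at 551 and 562 against 436 and 402 CPM.

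The strains were compared within members, with 1 sum per rat. Few genes passed, 9 higher in LEW (0.193% of 4655 tested) and 10 higher in DA (0.215%). Among them were an MHC gene with no UMI in DA, the fatty acid hydroxylase gene Cyp4a2 and the immediate early genes Fos and Nr4a1. The strains did not overlap in any of these 19 genes, nor in 42.4% of all genes tested. The number of calls rested on single libraries: without DA-1 2 genes were higher in LEW and 4 in DA, without DA-2 57 and 145, without LEW-1 56 and 72, and without LEW-2 21 and 34.

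Genes higher in LEW members included the MHC class I gene RT1-N2, with 52 and 33 UMIs in LEW-1 and LEW-2 and 0 in both DA rats, at least 22.1-fold higher against a floor of 3 UMIs over the DA members. RT1 genes form a family of similar sequences, so the count of any 1 of them is uncertain. Slc35c2, a solute carrier gene, was at 576 and 565 CPM in LEW and 22.3 and 23.1 CPM in DA (4.61 ± 0.46, edgeR adjusted p = 0.00105). Ugt2b, a glucuronosyltransferase gene, was at 2967 and 2903 CPM in LEW and 661 and 708 CPM in DA (2.09 ± 0.39, edgeR adjusted p = 0.0493), and its family too holds close relatives.

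The fatty acid-activating gene Acsm5 was at 292 and 218 CPM in LEW and 62.6 and 59.5 CPM in DA (2.05 ± 0.38). The chemokine gene Cxcl12 was at 372 and 298 CPM in LEW and 40.2 and 89.3 CPM in DA (2.34 ± 0.43). Extl1 differed by 2.82 ± 0.53. The other 3 genes were rows with provisional names.

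Genes higher in DA members included Ooep, with 27 and 70 UMIs in DA-1 and DA-2 and 0 in both LEW rats (at least 41.4-fold). Mlc1 had 146 and 89 UMIs in DA and 1 and 0 in LEW (ratio 301, 95% counting interval 53.5 to 11946). Gm22714 (at least 16.2-fold) and Ccn2 (at least 11.5-fold) were at 0 in LEW members. Cyp4a2 was at 2436 and 1577 CPM in DA and 179 and 128 CPM in LEW (-3.73 ± 0.47, edgeR adjusted p = 0.00305). Tifa was at 215 and 222 CPM in DA and 19.3 and 9.62 CPM in LEW (-3.87 ± 0.44).

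The immediate early genes Fos and Nr4a1 were also higher in DA members. Fos was at 170 and 116 CPM in DA and 0 and 12.8 CPM in LEW (-4.49 ± 0.72), and Nr4a1 at 188 and 417 CPM in DA and 68.9 and 38.5 CPM in LEW (-2.48 ± 0.46). Fam89a (-2.86 ± 0.54) and the P450 gene Cyp2c12 (-2.41 ± 0.46) completed the group. With 2 rats per strain these p-values reflect the spread between 4 livers, with a gene's variance estimate drawn in part from other genes.

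**Figure D5:**
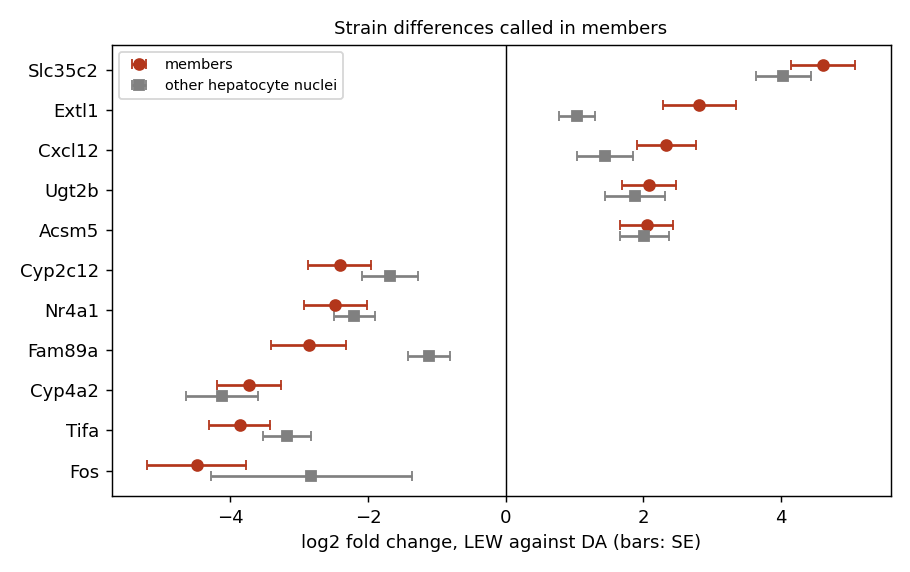
Log2 fold change of LEW against DA, with its SE, in members (circles) and in the other hepatocyte nuclei (squares) for the 11 named genes with more than 3 UMIs in each strain. Slc35c2 is the highest at 4.61 in members and 4.03 in the others, and Fos the lowest in members at -4.49.

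Beside them stand the same differences in the other hepatocyte nuclei, which come from the same libraries. There 70 of 11495 genes were higher in LEW (0.609%) and 81 higher in DA (0.705%). Slc35c2 differed by 4.03 ± 0.40, Acsm5 by 2.02 ± 0.36, Cyp4a2 by -4.12 ± 0.52, Tifa by -3.17 ± 0.35 and Nr4a1 by -2.20 ± 0.30, all past the threshold. Extl1 (1.04 ± 0.27), Cxcl12 (1.44 ± 0.41), Fam89a (-1.11 ± 0.30) and Fos (-2.82 ± 1.46) did not pass, nor did Cyp2c12. The interaction of strain and class passed for none of the 19 genes. It passed for 4 of 10594 genes in all (0.0378%), by edgeR with an adjusted p from 6.47e-16 to 0.011, and for 0 by DESeq2, with 521 and 131 genes at an unadjusted p under 0.05.

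Of the amino acid catabolism list edgeR called 0 of 50 genes between strains in members, with 1 higher and 11 lower in LEW at an unadjusted p under 0.05 and 2 called by DESeq2. Over all 4655 genes 5.13% were higher and 6.68% lower in LEW at an unadjusted p under 0.05 (11.8% in all), and DESeq2 called 0.537%. The list's median was -0.35 in members and -0.21 in the other hepatocyte nuclei, beside -0.01 and 0.03 over all genes. edgeR also called 0 of 10 urea cycle genes, 0 of 10 gluconeogenesis genes and 0 of 9 amino acid transporters. Of these 3, 2 and 4 had an unadjusted p under 0.05, all lower in LEW, and DESeq2 called 1 each. Their medians were -0.36, -0.36 and -0.64 in members and -0.56, -0.24 and -0.46 in the other hepatocyte nuclei. Of 19 hormone and fasting response genes edgeR and DESeq2 called 0, with 8 at an unadjusted p under 0.05, all lower in LEW. Their median was -0.65, and -0.63 in the other nuclei. edgeR and DESeq2 each called 1 of 17 fatty acid oxidation and ketogenesis genes, with 6 at such a p, all lower in LEW. Their median was -0.49, and -0.21 in the other nuclei. Plasma protein genes had a median of 0.67 with 0 of 22 called by edgeR or DESeq2 and 5 at an unadjusted p under 0.05, all higher in LEW. Their median in the other nuclei was 0.38. The 9 zonal rule genes were compared between strains over all hepatocyte nuclei, where 1.39% of 11603 genes were called, and none of the 9 passed. Amdhd1 came nearest. It was at 158 and 151 CPM in DA and 61.5 and 85.8 CPM in LEW (-1.03 ± 0.32, unadjusted p = 0.0072 by edgeR, adjusted p = 0.178). Sds was at 1444 and 697 CPM in DA and 378 and 1035 CPM in LEW (-0.63 ± 0.54), so its strains overlapped.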

How the data were processed

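The snRNA-seq and spatial matrices hold UMI counts as deposited. The authors made them with Cell Ranger (version 3.1.0 in the submitters' processing notes) and Space Ranger 1.1.0 on a custom rat genome of assembly 6.0; no normalization was applied. Each rat is 1 library. Nuclei were classed by the UMI limits given in the report, and members and gene lists were chosen with earlier results of these data known. UMIs were summed per rat and class, without the 12 rule genes, and tested with edgeR 4.0.16 (TMM, filterByExpr, robust quasi-likelihood, Benjamini-Hochberg at 0.05), with the rat as a block within rats; each SE is the log2 fold change over the square root of F. DESeq2 1.42.0 was an alternative. The steps were tested on simulated data. Scrublet (scanpy 1.11.5, expected rate 0.06) marked doublets, which were kept; the 6% of nuclei with the highest scores were left out in an alternative. Named genes passed the threshold, had a mean of at least 20 CPM and kept their sign in all rats (or strains apart); the 12 largest changes per direction were taken (6 against pericentral nuclei), leaving out provisional names. Other alternatives moved the UMI, mitochondrial and threshold limits, matched depth, and left out each rat, marker-bearing nuclei or the count filter. The cell libraries were not used here, and single values of some list genes are not reported here. Between strains, with 2 rats each, p-values reflect the spread of those livers, with a gene's variance estimate drawn in part from other genes. Where the rat is a block, they reflect how the difference between classes varies over rats.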

Additional observations from a re-analysis of the deposited data

Results flagged for a closer look

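For 4 genes the difference between strains differed between members and the other hepatocyte nuclei (interaction of class and strain, edgeR quasi-likelihood test). Ca3, a carbonic anhydrase gene, gave an interaction of 1.33 ± 0.29 (adjusted p = 0.011), and did not pass without DA-1 (adjusted p = 0.625) or without DA-2 (adjusted p = 0.954). It was at 170 and 185 CPM in DA members and 518 and 231 CPM in LEW members, and at 670 and 815 CPM against 747 and 430 CPM in the other nuclei. Idi1, an enzyme gene of isoprenoid synthesis, gave -1.62 ± 0.35 (adjusted p = 0.011), with 197 and 76.0 CPM in DA members, 46.9 and 60.9 CPM in LEW members, and 57.3 to 89.9 CPM in the other nuclei. It did not pass without DA-1 (-1.08) or without LEW-1 (-1.36). Ighm, the immunoglobulin heavy chain gene of B cells, gave -6.57 ± 0.71, but 26 of the 27 UMIs in DA-2 members came from 1 nucleus, without DA-2 the value was 3.40, and it did not pass without LEW-1 (-3.90, adjusted p = 0.13). AABR07060872.1, a row with a provisional name chosen after its values were seen, gave -6.17 ± 1.23, and its 6 UMIs in DA-2 members also came from 1 nucleus. It did not pass without DA-2 (-5.11) or without LEW-1 (-7.51). None of the 4 passed with DESeq2 or with members chosen whatever their pericentral UMIs.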

How the results depend on the processing

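Counts of called genes depended on which nuclei and rats entered. In members against other hepatocyte nuclei, the 636 higher and 1202 lower genes were 349 and 742 with DESeq2, 7 and 59 with no replicate block, 257 and 592 with at least 1500 UMIs, 2830 and 2782 with members whatever their pericentral UMIs, and, as choices made after seeing the data, 2201 and 2354 when Sult1e1 did not exclude and 30 and 85 against nuclei rich in the 5 genes with pericentral UMIs. The higher genes alone moved without a count filter (253), with at most 5% mitochondrial UMIs (420) and, also added later, against nuclei with fewer than 3 five-gene UMIs (1506); the lower genes alone moved with depth-matched nuclei (759). Leaving out 1 rat gave 358 to 589 and 878 to 1321. Against pericentral nuclei, 1043 higher genes became 492 (DESeq2), 613 (no filter), 1830 (whatever pericentral UMIs), 540 (1500 UMIs) and 1813 (Sult1e1 not used), and 1195 lower genes became 1917, 755 and 1932 under the last 3, with 644 to 1051 and 908 to 1227 when a rat was left out.

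Between strains in members, the 9 genes higher in LEW and 10 in DA became 5 and 6 with DESeq2 size factors, 67 and 91 with no filter, 5 and 5 with 4 or more UMIs, 49 and 52 whatever the pericentral UMIs, 3 and 5 without the highest Scrublet scores, 5 and 5 without marker-bearing nuclei and 16 and 21 when Sult1e1 was not used. With 1500 UMIs 4 were higher in LEW, and 17 were higher in DA with 2 or more UMIs and 6 with at most 5% mitochondrial UMIs. Without 1 rat they ranged from 2 to 57 and from 4 to 145. With the number in the labels as a replicate block they were 30 and 62. The labels do not say that equal numbers pair rats, while the study speaks of pairs of LEW and DA rats. The correlation of deviations (0.0966 over 4655 genes, from 2 pairs) cannot decide this. The interaction's 1 positive and 3 negative genes were 0 and 0 with DESeq2, 9 and 6 with 2 or more UMIs, and 23 and 7 whatever the pericentral UMIs; the positive count was also 4 with 1500 UMIs, 0 without marker-bearing nuclei and 27 with depth-matched nuclei, and the negative count 0 when Sult1e1 was not used. Without 1 rat they ranged from 0 to 10 and from 1 to 3. The share difference between strains (-0.99 percentage points) ranged from -2.45 to 0.474 when a rat was left out, turning without LEW-1, and was -3.31 with nuclei thinned to 1000 UMIs and, added later, -5.45 whatever the pericentral UMIs (-6.45 thinned), and the Ighm interaction turned to 3.40 without DA-2 (range without 1 rat -7.98 to 3.40). The cause of these moves was not tested. No named gene of the first 2 comparisons or of the strain comparison changed direction.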

Other observations

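In the tissue sections, gene lists were set between the spots high and low in the 5 periportal genes, as a description over 2 Wistar livers. Over all 3491 tested genes, 32.3% were higher and 35.0% lower in the high spots of both sections. Other periportal genes were higher in the high spots of both sections in 18 of 18 cases, where 6 of 20 had been higher and 5 lower in member nuclei. Other pericentral genes were lower in the high spots in 13 of 13 cases. Gluconeogenesis genes were higher in 9 of 10 cases and urea cycle genes in 7 of 9, and of 53 amino acid catabolism genes 30 were higher and 17 lower. Lipogenesis genes were lower in 8 of 10 cases and higher in 0, where 4 of 13 had been higher in member nuclei. The 4 macrophage markers measured were higher in the high spots of both sections, and the 4 mesenchymal and 2 endothelial markers lower. A spot holds several cells, so these levels are not those of hepatocytes alone.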
